A study of Mus musculus with 15 samples.

Results

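Cholangiocytes, the epithelial cells that line the bile ducts, express a set of genes that hepatocytes carry at low levels or not at all, and 8 of them were followed in the liver RNA of young and old mice: Krt7, Krt19, Krt23, Epcam, Cldn4, Sox9, Spp1 and Cftr. They were chosen by name as genes of cholangiocytes and of the ductular reaction, with earlier results of these data known. They are 8 of the 55450 genes in the count table. A total of 6 had enough counts to be tested, among 15808 such genes, and Cftr and Cldn4 did not. RNA was sequenced from the liver of 15 female C57BL/6 mice, 5 per group. Adult mice, A1 to A5, are labelled as aged 6 months and Old mice, O1 to O5, as aged 22 months, and both were given corn oil as vehicle. Per the methods of the study these are the ages at its start, some weeks before gavage began, so the livers came from mice that were months older. PDX mice, P1 to P5, had the age of the Old mice and were given protectin DX, a lipid mediator made from docosahexaenoic acid, at 30 ng per g of body weight in the same oil. They differ from Adult mice in both age and treatment, which cannot be told apart in that comparison. Gavage was daily for 9 weeks per the sample labels and for 8 weeks per the description of the series. No mouse was given as carrying a modified allele, and the libraries came from crushed whole liver, so hepatocytes, ducts, vessels and blood cells were read together.

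Bile ducts form a small part of the liver, and their cells modify bile by secreting chloride and bicarbonate and by taking up bile acids and glucose. In the ductular reaction, which accompanies many forms of liver injury, duct-like cells multiply at the edge of the portal tract, where they express keratins 7 and 19, the adhesion molecule EpCAM, the transcription factor SOX9 and the secreted matrix protein osteopontin. In whole liver, a change in the number of such cells and a change in the RNA of each cell cannot be told apart.

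Each mouse had from 22424383 to 36070835 counted read pairs. Albumin (Alb), the defining transcript of hepatocytes, lay between 34724 CPM (counts per M counted pairs) in O5 and 180125 CPM in O1. The livers of O2 and O5 stood apart: 10 hepatocyte genes summed to 79172 CPM in O2 and 65070 CPM in O5, against 115069 to 208566 CPM in the other 13 mice. O5 was the highest of the 15 mice for 25.9% of all tested genes and O2 for 20.1%. Transcripts of 8 pancreatic acinar genes summed to 329 CPM in O3, 386 CPM in O4 and 78.1 CPM in P5, and to at most 5.66 CPM in any other mouse. Results are therefore given with and without these libraries where they turn on them. CPM values here are scaled by the edgeR normalization factors (TMM), and differences are log2 fold changes with the adjusted p-values (Benjamini-Hochberg) of the quasi-likelihood test in edgeR.

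Per kilobase of exon, Spp1 was by far the most abundant of the 8 transcripts, with a median of 22.0 CPM per kb in Adult, 32.2 in Old and 32.8 in PDX mice. In the Adult group it was followed by Krt23 (1.15 CPM per kb), Krt19 (1.03), Epcam (0.915) and Sox9 (0.648), and each of these 4 overlapped its neighbour in the order over the mice. Krt7 (0.125) and Cldn4 (0.0753) lay below all of them and overlapped each other, and Cftr was at a median of 0. In the Old group the order was Spp1, Krt19 (1.40), Epcam (1.10), Sox9 (1.01), Krt23 (0.522), Krt7 (0.199), Cldn4 (0.0935) and Cftr (0.0191), so that Krt23 stood below Sox9 with no overlap of these 2 genes. In the PDX group Sox9 (1.53) was second, before Krt19 (1.26), Epcam (0.700), Krt23 (0.410), Krt7 (0.182), Cldn4 (0.152) and Cftr (0.0230). The lengths are those of all annotated exons of a gene, and Krt7 and Cftr, with 7049 and 7765 exon bases, have the longest.

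**Figure D1:**
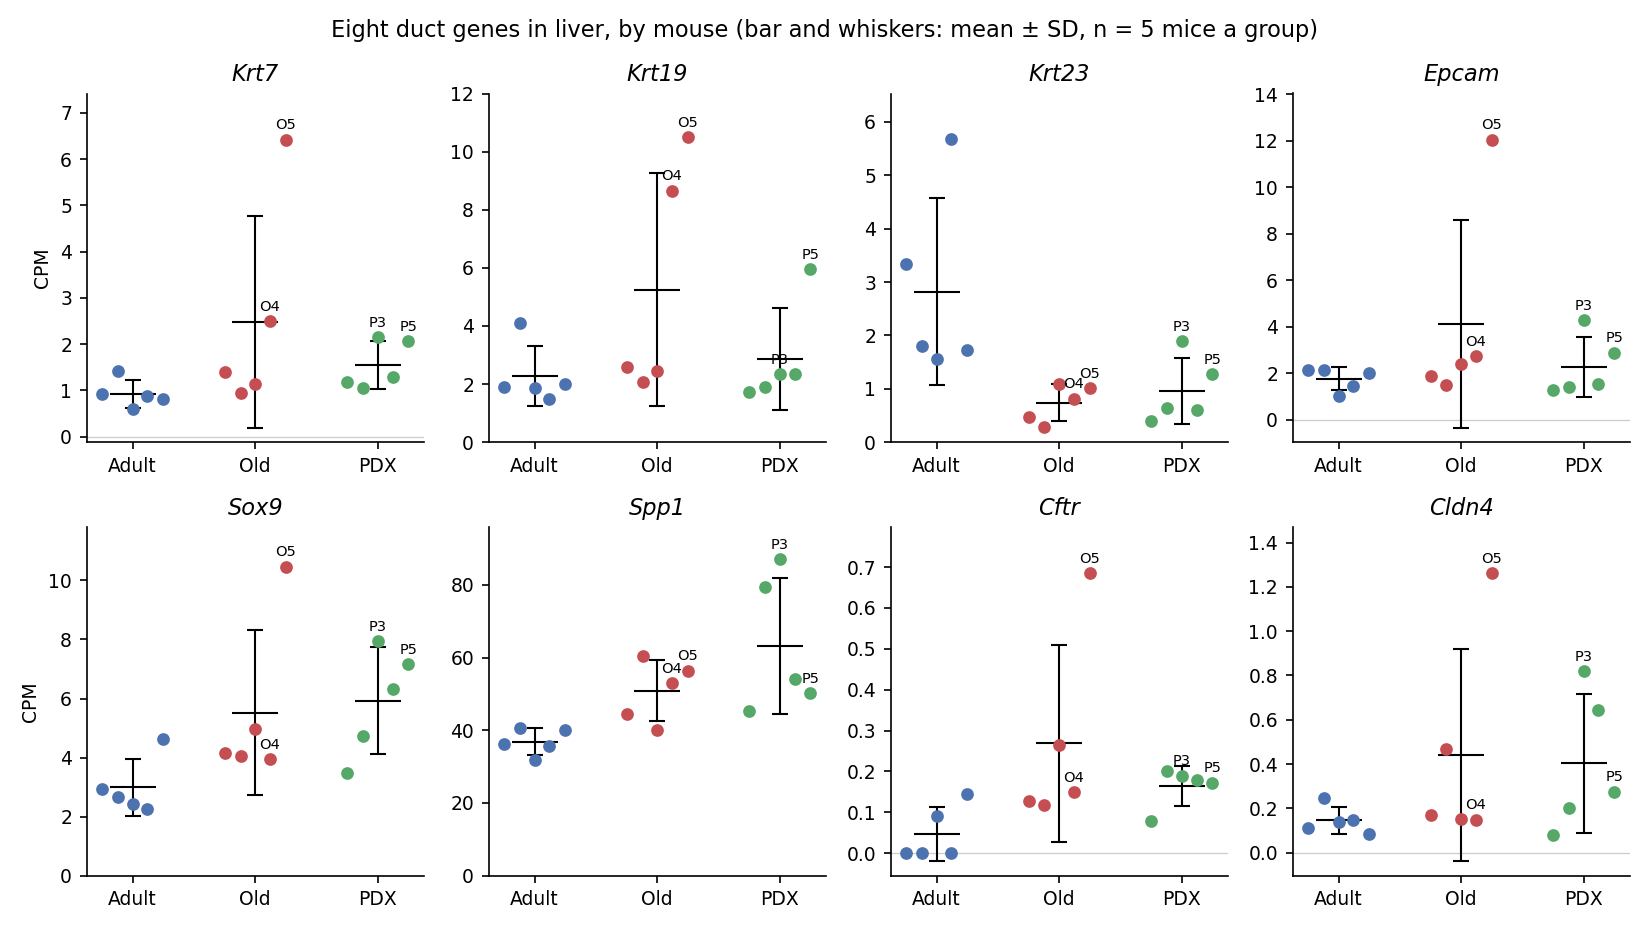
CPM (linear axis) of the 8 duct genes in each mouse by group, with the mean and SD of each group as a bar and whiskers. O5 is the highest mouse in 6 of the 8 panels, whereas in the panel of Krt23 every Old mouse lies below every Adult mouse.

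The duct keratins moved in different ways between Old and Adult mice. Krt23 fell in the Old group, whereas Krt7 and Krt19 had higher means that did not pass the test. Keratins are the intermediate filament proteins of epithelia: Krt7 and Krt19 are the classical duct keratins, and Krt23 is a type I keratin known to be induced in stressed liver.

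Krt23 (ENSMUSG00000006777), on chromosome 11 of GRCm38 from 99477974 to 99493137, minus strand, was at 3.34, 1.80, 1.55, 5.67 and 1.72 CPM in A1 to A5. In O1 to O5 it was at 0.467, 0.293, 1.09, 0.817 and 1.01 CPM, and in P1 to P5 at 0.395, 0.642, 1.89, 0.607 and 1.27 CPM. The highest Old mouse, O3, lay below the lowest Adult mouse, A3, and of the PDX mice only P3 lay within the Adult range. The log2 fold change in Old over Adult was -1.93 (SE 0.50, 95% interval -3.03 to -0.84, adjusted p = 0.0363 in edgeR's test). It was 3.82-fold lower, and 5 of 5 Old mice were below the Adult mean. Krt23 was the only member called in this comparison, 1 of the 6 tested, beside 6.78% of all tested genes called in either direction, 4.71% higher and 2.07% lower. The groups did not overlap for this 1 of 6 members, beside 8.13% of all tested genes, 3.65% with all Old mice higher and 4.48% with all lower.

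The fall of Krt23 was near the threshold. The adjusted p was between 0.0613 and 0.0998 when any 1 Adult mouse was left out, 0.0522 without O1, 0.0671 without O2, 0.0693 without O2 and O5 and 0.0297 without O5, and the log2 fold change over the fits that left out 1 mouse ranged from -2.12 to -1.52.

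Krt7 (ENSMUSG00000023039), on chromosome 15 from 101411043 to 101430313, plus strand, was at 0.927, 1.41, 0.593, 0.878 and 0.803 CPM in A1 to A5. The Old mice had 1.40, 0.936, 1.13, 2.49 and 6.42 CPM and the PDX mice 1.18, 1.04, 2.14, 1.29 and 2.06 CPM. Of the Old mice O4 and O5 lay above the Adult range, and of the PDX mice P3 and P5. The log2 fold change in Old over Adult was 1.42 (SE 0.48, adjusted p = 0.0759 in edgeR's test), and it was 0.68 (adjusted p = 0.190) without O5. Krt7 passed with an adjusted p of 0.0431 when O3 was left out.

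Krt19 (ENSMUSG00000020911), on chromosome 11 from 100140810 to 100148665, minus strand, was at 1.91, 4.09, 1.87, 1.50 and 2.01 CPM in A1 to A5. It was at 2.59, 2.08, 2.45, 8.66 and 10.5 CPM in O1 to O5 and at 1.74, 1.89, 2.33, 2.36 and 5.95 CPM in P1 to P5. O4, O5 and P5 were the 3 highest mice, and the other 3 Old mice lay within the Adult range. The log2 fold change in Old over Adult was 1.21 (SE 0.50, adjusted p = 0.136 in edgeR's test). O4 and P5 were also among the 3 mice with pancreatic transcripts, and pancreatic ducts express Krt19. O3, the other such mouse, had Krt19 at 2.45 CPM, within the Adult range. O5, with the highest Krt19, had 0.144 CPM of the pancreatic genes. Without O3, O4 and P5 the log2 fold change of Krt19 was 1.15 (adjusted p = 0.115 in edgeR's test). The part of pancreatic tissue in the level of Krt19, or of any other member, was not tested further.

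The adhesion and junction genes showed the same unequal Old group. Epcam (ENSMUSG00000045394), which encodes a cell adhesion molecule of epithelia, lies on chromosome 17 from 87635979 to 87651129, plus strand. It was at 2.16, 2.15, 1.05, 1.46 and 2.01 CPM in A1 to A5, at 1.91, 1.49, 2.41, 2.75 and 12.0 CPM in O1 to O5, and at 1.30, 1.41, 4.29, 1.54 and 2.89 CPM in P1 to P5. O5 lay far above every other mouse, and the 4 other Old mice overlapped the Adult mice or lay just above them. The log2 fold change in Old over Adult was 1.22 (SE 0.54, adjusted p = 0.159 in edgeR's test) with O5 and 0.27 (adjusted p = 0.655) without it. Cldn4 (ENSMUSG00000047501), which encodes a claudin of tight junctions, lies on chromosome 5 from 134945119 to 134946934, minus strand. It had 4, 7, 3, 4 and 3 counts in A1 to A5, 4, 16, 4, 4 and 35 in O1 to O5, and 2, 5, 26, 18 and 8 in P1 to P5. These counts were too low for the test. In a fit without the low-count filter its log2 fold change in Old over Adult was 1.56 (SE 0.70, adjusted p = 0.228 in edgeR's test).

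Sox9 (ENSMUSG00000000567), the transcription factor that marks duct and ductal plate cells, lies on chromosome 11 from 112782224 to 112787760, plus strand. It was at 2.95, 2.68, 2.42, 2.27 and 4.62 CPM in A1 to A5 and at 4.16, 4.04, 4.98, 3.94 and 10.5 CPM in O1 to O5. The PDX mice had 3.47, 4.74, 7.95, 6.32 and 7.16 CPM. All Old and PDX mice lay above 4 of the 5 Adult mice, but 3 Old mice and P1 lay below A5. The log2 fold change was 0.88 (SE 0.32, adjusted p = 0.0894 in edgeR's test) in Old over Adult and 0.99 (SE 0.32, adjusted p = 0.103) in PDX over Adult. Without O5, whose level also enters the estimate of the spread, the latter was 0.98 with an adjusted p of 0.0222, and without O2 and O5 it was 1.00 with an adjusted p of 0.00858.

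Spp1 (ENSMUSG00000029304) encodes osteopontin, a secreted matrix protein and cytokine made by duct cells and also by macrophages. It lies on chromosome 5 from 104435118 to 104441050, plus strand. Its levels were 36.3, 40.6, 31.7, 35.7 and 40.2 CPM in A1 to A5, 44.5, 60.5, 40.0, 53.0 and 56.4 CPM in O1 to O5, and 45.3, 79.4, 87.1, 54.0 and 50.2 CPM in P1 to P5. Every PDX mouse and 4 of the 5 Old mice were above every Adult mouse, and O3 was at the upper end of the Adult range. Spp1 rose in PDX over Adult by 1.71-fold, with a log2 fold change of 0.78 (SE 0.18, 95% interval 0.38 to 1.17, adjusted p = 0.0333 in edgeR's test). It was the only member called there, 1 of 6 tested, beside 2.66% of all tested genes called and 1.76% called higher, and the groups were apart for this member and for 19.9% of all tested genes, 10.5% with all PDX mice higher and 9.34% with all lower. In Old over Adult the log2 fold change was 0.46 (SE 0.18, adjusted p = 0.114). The call in PDX over Adult ended when any 1 Adult mouse (adjusted p from 0.0685 to 0.0962), P2 (0.0995), P3 (0.0866) or P4 (0.0515) was left out.

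Cftr (ENSMUSG00000041301) encodes the chloride channel of the duct's apical membrane and lies on chromosome 6 from 18170687 to 18322768, plus strand. A1, A2 and A4 had 0 counts, which allows up to 3 counts or 0.0843 to 0.110 CPM in these mice, and A3 and A5 had 2 and 5. O1 to O5 had 3, 4, 7, 4 and 19 counts, and P1 to P5 had 2, 5, 6, 5 and 5. Summed over the mice this makes 7 counts in Adult, 37 in Old and 23 in PDX mice, and O3, O4 and O5 lay above the Adult range in CPM. In the fit without the low-count filter the log2 fold change in Old over Adult was 2.39 (SE 0.85, adjusted p = 0.126 in edgeR's test), and DESeq2's Wald test gave 2.53 with an adjusted p of 0.0388.

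The sequences before the transcription start are shown for the members called in a comparison, Krt23 and Spp1, and for Krt7 and Epcam, the pair with the highest Pearson's r over the 15 mice. Promoters were found for 6 of the 8 members in RefSeq on GRCm38.p6, and those of Krt19 and Sox9 were not used here. Each is the stretch of 250 bases that ends at the base before the start, printed 5′ to 3′ on the strand of the gene, with chr11:99493121-99493370 (minus strand) for Krt23, chr5:104434861-104435110 (plus) for the first of 2 starts of Spp1, chr15:101412153-101412402 (plus) for Krt7 and chr17:87635729-87635978 (plus) for Epcam. Capitals mark every match, on either strand, to 6 motifs that were searched: the TATA box motif TATAAA, the AP-1 motif TGANTCA of the FOS and JUN proteins, the motif GGAATG of the TEAD factors with which YAP acts, the motif TGGGAA of the Notch effector RBPJ, the motif ACAATG of the SOX family and the GC box motif GGGCGG. No match overlaps another in these 4 sequences.
Krt23: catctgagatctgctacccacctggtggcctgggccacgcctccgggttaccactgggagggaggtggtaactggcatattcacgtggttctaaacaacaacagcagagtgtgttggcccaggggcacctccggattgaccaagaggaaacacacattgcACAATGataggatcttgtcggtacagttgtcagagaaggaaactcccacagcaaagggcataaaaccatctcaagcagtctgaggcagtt
Spp1: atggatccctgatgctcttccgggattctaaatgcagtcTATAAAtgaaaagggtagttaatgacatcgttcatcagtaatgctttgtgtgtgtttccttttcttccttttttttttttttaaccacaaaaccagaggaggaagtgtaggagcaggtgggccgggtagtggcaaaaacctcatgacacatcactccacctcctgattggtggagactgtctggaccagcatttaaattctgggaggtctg
Krt7: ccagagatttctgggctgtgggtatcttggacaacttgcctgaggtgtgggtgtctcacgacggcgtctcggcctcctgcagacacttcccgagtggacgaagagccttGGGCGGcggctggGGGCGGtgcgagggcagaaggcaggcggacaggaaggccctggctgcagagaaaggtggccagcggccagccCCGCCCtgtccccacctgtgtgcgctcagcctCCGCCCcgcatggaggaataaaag
Epcam: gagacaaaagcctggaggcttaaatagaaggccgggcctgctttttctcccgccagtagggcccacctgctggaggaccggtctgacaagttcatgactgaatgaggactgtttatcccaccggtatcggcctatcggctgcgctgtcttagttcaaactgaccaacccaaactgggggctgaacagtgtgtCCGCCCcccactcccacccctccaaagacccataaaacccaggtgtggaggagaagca

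Krt7 held 4 GC boxes and Epcam 1, and Krt23 and Spp1 held none, where 32.7% of 32851 RefSeq promoters of the same length hold at least 1. The only ACAATG was in Krt23, a motif found in 10.7% of promoters. The Spp1 sequence held TATAAA (12.4% of promoters). None of the 4 held TGANTCA (6.75% of promoters), GGAATG (12.6%) or TGGGAA (21.6%), whereas Cldn4, not printed, held 2 TGANTCA matches. The 4 sequences differed in base composition, with a GC content of 66.0% in Krt7, 56.4% in Epcam, 52.8% in Krt23 and 43.6% in Spp1, beside a median of 52.4%. These matches describe the letters of the windows only.

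The comparison of PDX with Old mice asks what the treatment changed at the same age. No member was called, at an adjusted p under 0.05 or under the 0.25 that the study used, and 0% of all tested genes were called at either threshold. At an unadjusted p under 0.05 there were 0 of 6 members and 834 of 15808 genes (5.28%), where Old over Adult had 6 of 6 members beside 27.7% of genes and PDX over Adult 3 of 6 beside 20.6%. Of the 6 in Old over Adult, 5 were higher and 1, Krt23, was lower. The members were chosen with earlier results of these data known, so these counts are a description and no test of duct genes as a set. In PDX over Old DESeq2 called 1 gene, which was no member. The log2 fold changes were -0.68 for Krt7 (95% interval -1.70 to 0.34), -0.88 for Krt19 (-1.96 to 0.21), 0.40 for Krt23 (-0.70 to 1.49), -0.85 for Epcam (-2.01 to 0.32), 0.11 for Sox9 (-0.57 to 0.78) and 0.31 for Spp1 (-0.08 to 0.71). These intervals hold changes of more than 2-fold for every member except Sox9 and Spp1. The groups overlapped for every member, beside 0.342% of all tested genes without overlap, 0.145% higher and 0.196% lower. Without O5, the log2 fold change of Krt7 was 0.06 and that of Epcam 0.10, so the lower PDX means of both genes rested on this mouse.

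**Figure D2:**
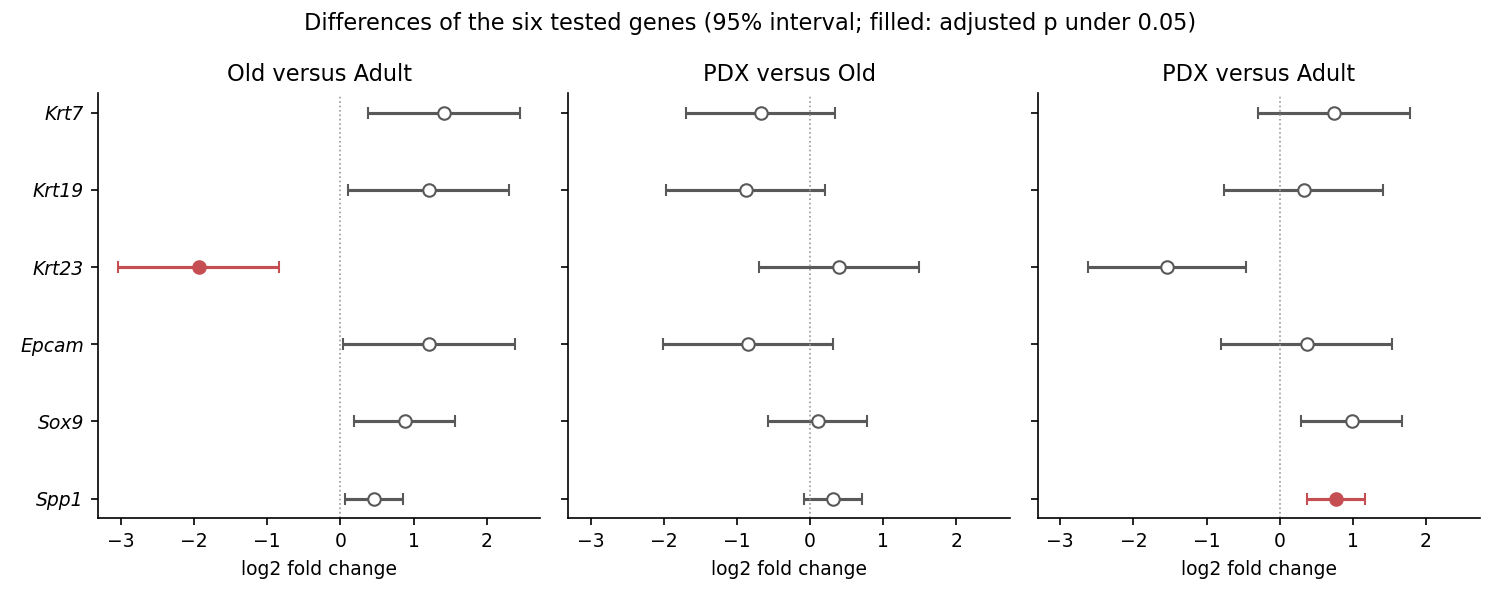
Log2 fold changes of the 6 tested members in the 3 comparisons, with 95% intervals, where filled symbols passed an adjusted p of 0.05. Krt23 in Old over Adult and Spp1 in PDX over Adult are the 2 filled symbols, and every interval of PDX over Old includes 0.

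Set side by side, the 3 comparisons share mice. Krt23 had log2 fold changes of -1.93 in Old and -1.54 in PDX over Adult, the latter with 0.104 as its adjusted p in edgeR. Krt7 had 1.42 and 0.74, Krt19 1.21 and 0.33, Epcam 1.22 and 0.37, Sox9 0.88 and 0.99, and Spp1 0.46 and 0.78. Of these values, those of Krt7, Krt19 and Epcam in PDX over Adult had adjusted p-values of 0.401, 0.767 and 0.755. The median over the 6 tested members was 1.04 in Old over Adult, -0.29 in PDX over Old and 0.56 in PDX over Adult, beside 0.07, -0.07 and -0.01 over all tested genes.

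The spread within the Old group set these genes apart from each other. The coefficient of variation of the Old mice was 108% for Epcam, 109% for Cldn4, 92.3% for Krt7, 89.5% for Cftr, 76.2% for Krt19, 50.7% for Sox9, 47.0% for Krt23 and 16.6% for Spp1, where the median of all tested genes was 36.6%. In the Adult group it was lower than in the Old group for 6 members, among them Epcam (27.9%) and Krt7 (32.6%), and higher for Krt23 (62.2%) and for Cftr (142%, with 0 to 5 counts per mouse), and the median of all tested genes was 14.4%. O5 had the highest level of the 15 mice for Krt7, Krt19, Epcam, Sox9, Cftr and Cldn4, 6 of the 8 members, beside the 25.9% of all tested genes given above. P3 was among the 3 highest mice for 6 members, beside 19.1% of all tested genes. For Krt23, O5 was ninth of 15. In the labels O5 also had the highest frailty index, 0.56, and a body weight change of -3.55%, which the study defines as a mean per week, the largest loss given. A relation of these traits to the duct genes was not tested.

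Over the 15 mice, Krt7 and Epcam had the highest Pearson's r of log2 CPM of any pair of members (0.91, and 0.77 without O5). Sox9 and Cftr had 0.85 (0.79 without O5) and Krt7 and Krt19 0.86 (0.77 without O5). The order of the pairs was not stable, since without O5 the highest r was that of Sox9 and Cftr, which also had the highest Spearman's rho over the 15 mice (0.89, against 0.71 for Krt7 and Epcam). Krt23 had r between -0.48 and 0.11 with the 7 other members. These values share the libraries, their depth and the 3 groups, and the low counts of Cftr make its values coarse.

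Among 12023 tested genes whose mean log2 CPM was at least 1, Epcam (r 0.91), Lmna (0.90), which encodes lamin A/C, and Snrnp70 (0.90), of the U1 particle of the spliceosome, were most like Krt7. Snrnp70 (0.84), Myh11 (0.82), the smooth muscle myosin, and Set (0.80) were most like Krt19. Mbd6 (0.89), Fam83g (0.89) and Dact2 (0.88) were most like Epcam, and Mks1 (0.86), a protein of the cilium base, Zfp334 (0.83) and Kcnq1ot1 (0.83) were most like Sox9. Tex264 (0.88) and Ugp2 (0.88), the enzyme that makes UDP-glucose, were among those most like Krt23. Tmem176b (0.88), Adamdec1 (0.88), a secreted metalloprotease of macrophages, and Synpo (0.87) were most like Spp1. Without O5, r fell to between 0.63 and 0.79 for the genes most like Krt7, Krt19, Epcam and Sox9, and was 0.88 to 0.91 for those most like Krt23 and Spp1.

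Of 16 tested genes among 19 other genes of duct epithelium, Mmp7, a matrix metalloprotease, and Cd24a, a surface glycoprotein, rose in Old over Adult, the desmosomal cadherin Dsg2 fell, and 13 did not pass, with a median log2 fold change of 0.77. Mmp7 was at 0 to 0.146 CPM in the Adult mice and at 0.255, 0.995, 0.151, 1.49 and 59.0 CPM in O1 to O5, so that its log2 fold change of 7.40 (SE 1.72, adjusted p = 0.0267 in edgeR's test) was 3.31 (adjusted p = 0.0297) without O5. The call of Mmp7 ended when any 1 Adult mouse was left out (adjusted p up to 0.0706) or O2 and O5 were (0.0615). Cd24a was at 2.28 to 3.77 CPM in the Adult mice and at 3.53, 63.7, 14.4, 6.06 and 19.8 CPM in O1 to O5. Its log2 fold change was 2.98 (SE 0.59, adjusted p = 0.0156 in edgeR's test), and 1.56 without O2 and O5 (adjusted p = 0.0157). O2, the highest for Cd24a, also had the largest sums of neutrophil (266 CPM), B and plasma cell (116 CPM) and proliferation genes (176 CPM). It was 11th of the 15 mice for Krt7 and Epcam and 9th for Krt19, whereas O5 was the highest mouse for these genes. The cells behind the level of Cd24a were not tested. Dsg2, which hepatocytes also express, was at 101 to 120 CPM in the Adult mice and at 67.2, 62.4, 96.5, 74.2 and 45.3 CPM in O1 to O5 (log2 fold change -0.66, SE 0.16, adjusted p = 0.0295 in edgeR's test), a call that held in 15 of 24 other fits. The list had 4 higher and 1 lower calls without O5, and 5 higher and 1 lower without O3, O4 and P5. Over all 15808 tested genes 1072 were called in Old over Adult. This rose to 2115 of 16027 without O5 and 2803 of 16324 without O3, O4 and P5.

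In PDX over Adult, Prom1, which encodes prominin-1 (CD133) of the apical membrane, was the only 1 of the 16 that passed. It was at 21.1, 19.0, 25.1, 5.60 and 19.5 CPM in A1 to A5 and at 73.0, 88.4, 67.9, 52.1 and 37.3 CPM in P1 to P5, with no overlap (log2 fold change 1.82, SE 0.33, adjusted p = 0.00945 in edgeR's test). The Old mice lay between 27.0 and 48.9 CPM, also all above the Adult mice, with a log2 fold change of 1.05 (adjusted p = 0.0616). Prom1 passed in PDX over Adult in 24 of 24 other fits. The list's 1 call became 3 higher and 1 lower without O5, and 5 higher and 1 lower without O2 and O5. Calls over all genes in PDX over Adult rose as well, from 420 of 15808. They were 1744 of 16027 without O5, 1766 of 15978 without O2 and 4004 of 16275 without O2 and O5. These totals apply to the same fits in the lists below.

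The transport genes of the duct, 12 of 17 tested, included a member that passed in both comparisons with the Adult group, Slc10a2, the apical sodium-dependent bile acid transporter. It was at 13.4, 8.88, 9.30, 8.16 and 6.74 CPM in A1 to A5, at 36, 49.1, 27.6, 38.3 and 16.9 CPM in O1 to O5, and at 76.7, 98.8, 57.3, 45.1 and 27.7 CPM in P1 to P5. Every Old and every PDX mouse lay above every Adult mouse, and O5 was the lowest of the Old mice. The log2 fold change was 1.85 (SE 0.33, adjusted p = 0.0110 in edgeR's test) in Old and 2.71 (SE 0.34, adjusted p = 0.00101) in PDX over Adult, and both passed in 24 of 24 other fits. The glucose transporter Slc5a1 rose from 1.05 to 1.87 CPM in the Adult mice to 18.1, 24, 9.68, 8.68 and 4.64 CPM in the PDX mice (log2 fold change 3.05, SE 0.62, adjusted p = 0.0162), a call that ended without P2 or without any 1 of A2 to A5 (adjusted p up to 0.0548). Slc5a1 was at 3.57, 15.2, 3.96, 5.09 and 0.758 CPM in O1 to O5. Its log2 fold change in Old over Adult was 1.87 (adjusted p = 0.0655 in edgeR's test). O5, the highest mouse for 6 of the 8 members, was thus the lowest Old mouse for both Slc10a2 and Slc5a1. The cells that these transcripts came from were not tested. Aqp1, a water channel of ducts and also of endothelium, fell in Old over Adult (log2 fold change -0.59, SE 0.17, adjusted p = 0.0486), a call that held in 6 of 24 other fits. The median over the 12 genes was 0.11 in Old over Adult and 0.18 in PDX over Adult. Without O5 there were 2 higher and 2 lower calls in Old over Adult, and without O2 and O5 there were 4 higher and 1 lower in PDX over Adult.

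Of 11 tested transcription factors in a list for duct cells, Elf3, an epithelial ETS factor, rose in Old over Adult. It was at 0.410 to 1.16 CPM in the Adult mice and at 3.61, 6.14, 1.17, 3.34 and 7.07 CPM in O1 to O5 (log2 fold change 2.30, SE 0.43, adjusted p = 0.0129 in edgeR's test), and it passed in 23 of 24 other fits. In PDX over Adult, Foxa1, which hepatocytes also express, fell from 12.3 to 18.2 CPM in the Adult mice to 5.10 to 7.92 CPM in the PDX mice (log2 fold change -1.12, SE 0.21, adjusted p = 0.0120). The Old mice had 6.76 to 16.5 CPM of Foxa1, with a log2 fold change of -0.56 over Adult (adjusted p = 0.0989 in edgeR's test). The medians over the 11 genes were 0.14 in Old over Adult and -0.27 in PDX over Adult. Without O5, 1 factor was called higher and 1 lower in each of these comparisons. Prox1, Hhex, Onecut2 and Foxa2 had means of 69.6, 67.9, 65.7 and 37.4 CPM over the 15 mice, far above Krt19 at 3.46 CPM. The cells that these transcripts came from were not told apart, so the medians of the list need not be those of duct cells.

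Among the other simple epithelial keratins, 3 of 5 tested, Krt80 passed in Old over Adult (log2 fold change 2.08, SE 0.58, adjusted p = 0.0463 in edgeR's test). Its rise rested on O2, which had 5.50 CPM where the other Old mice had 0.467 to 1.17 CPM, and without O2 it was 0.93 (adjusted p = 0.104). None of the 3 passed in PDX over Adult, and 2 did without O2. Krt8 and Krt18, the keratin pair that hepatocytes share with ducts, had log2 fold changes of -0.15 (adjusted p = 0.688) and 0.60 (adjusted p = 0.0642) in Old over Adult.

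**Figure D3:**
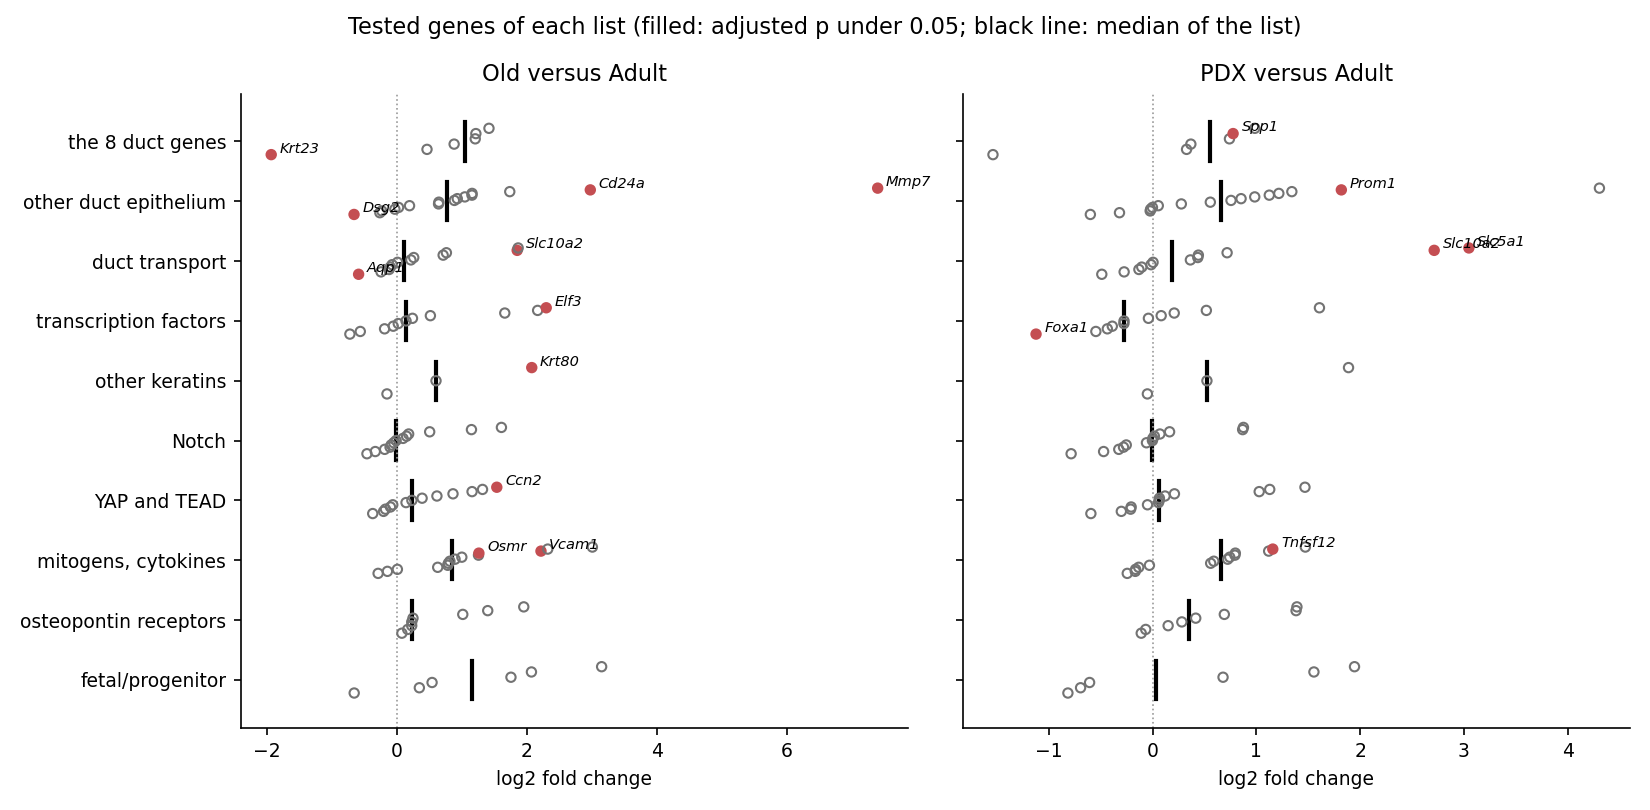
Log2 fold changes of the tested genes of each list in Old over Adult (left) and PDX over Adult (right), where filled symbols passed an adjusted p of 0.05 and black lines are list medians. Mmp7 at 7.40 is the farthest symbol on the left, and Slc5a1 and Slc10a2 are the farthest filled symbols on the right.

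Signals that are known to act on duct cells were mostly not called. None of 13 Notch pathway genes passed in any comparison over the 15 mice, where 1 did in Old over Adult with DESeq2 or without O3, O4 and P5, and 1 in PDX over Adult without O2 and O5. The most abundant, Notch2 and Notch1, had log2 fold changes of 0.18 (adjusted p = 0.522 in edgeR's test) and -0.19 (adjusted p = 0.522) in Old over Adult. Of 13 genes of the YAP and TEAD pathway, Ccn2, a matricellular growth factor, rose in Old over Adult, from 3.37 to 15.4 CPM in the Adult mice to 20.6, 31.4, 12.7, 19.4 and 36.1 CPM in O1 to O5. Its log2 fold change was 1.54 (SE 0.36, adjusted p = 0.0280), and 1.10 (adjusted p = 0.0819) without O2 and O5. The call held in 17 of 24 other fits. Without O5 the list had 2 higher and 2 lower calls in Old over Adult, and in PDX over Adult, with 0 calls over the 15 mice, it had 3 higher and 2 lower without O2 and O5.

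Of 14 tested genes in a list of 19 cytokines, mitogens, receptors and adhesion molecules, 2 rose in Old over Adult. These were the adhesion molecule Vcam1 and the oncostatin M receptor Osmr. Vcam1, with 240.5 CPM in O2, had a log2 fold change of 2.22 (adjusted p = 0.0337), and 1.06 (adjusted p = 0.0452) without O2. Osmr had 1.26 (adjusted p = 0.0280 in edgeR's test), and 0.74 (adjusted p = 0.0711) without O2 and O5. The calls of Vcam1 and Osmr each held in 16 of 24 other fits. In PDX over Adult, Tnfsf12, which encodes the duct cell mitogen TWEAK, passed with a log2 fold change of 1.16 (SE 0.28, adjusted p = 0.0381), a call that held in 15 of 24 other fits, and the list had 4 calls there without O2. In Old over Adult Tnfsf12 had a log2 fold change of 0.63 (adjusted p = 0.156 in edgeR's test). The 8 osteopontin receptor genes had 0 calls over the 15 mice. In PDX over Adult 2 of them were called higher without O2 and 5 without O2 and O5, and in Old over Adult 2 with DESeq2 or without O3, O4 and P5. Itgb1 and Itgb5, the most abundant, had log2 fold changes of 0.08 and 0.17 in Old over Adult. None of 6 tested genes of fetal liver and progenitors among 9 passed over the 15 mice, where 1 did in Old over Adult without O5 and 2 with DESeq2 or without O3, O4 and P5. The most abundant, Peg3 and Lgr5, had log2 fold changes of 2.07 (adjusted p = 0.0566 in edgeR's test) and -0.66 (adjusted p = 0.143) in Old over Adult. In PDX over Old, 0 genes of these 9 lists passed.

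Markers of other cells moved with some of the members. A list of 6 gallbladder genes summed to 404 CPM in O5, 62.3 CPM in O4 and 56.0 CPM in P5, and to 3.36 to 19.2 CPM in the other 12 mice, and O4, O5 and P5 were also the 3 highest mice for Krt19. Most of that sum was Dmbt1, a mucin-like protein of epithelia, named here after its values were seen, with 395 CPM in O5. Muc5b was at 0 in 14 of the 15 mice. The share of gallbladder or extrahepatic duct in the duct genes was not tested. Mesothelial genes, 8 in the list, summed to 4.34 to 10.3 CPM in all mice. A list of 12 portal fibroblast and stellate cell genes summed to 750.5 CPM in O5, 612 CPM in O2 and 496 CPM in P3, against 202 to 308 CPM in the other 12 mice.

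Macrophages, which also make Spp1, were read with marker lists. A list of 10 genes of lipid-associated macrophages summed to 318 to 337 CPM in Adult, 441 to 951 CPM in Old and 409 to 616 CPM in PDX mice, with no overlap of either older group with the Adult group. In Old over Adult 7 of its 10 genes rose, and 2 did with these 2 groups alone. Between PDX and Adult 3 of 10 rose, and 6 did without O2 or without O5 and 9 without both. All genes called there rose from 420 to 1766, 1744 and 4004 in these fits. A list of 7 Kupffer cell genes, which mark the resident macrophages of the liver, summed to 394 to 595 CPM in Adult, 265 to 2558 CPM in Old and 659 to 1332 CPM in PDX mice, so that every PDX mouse lay above every Adult mouse. It had 0 calls in edgeR over the 15 mice, with 1 gene at an unadjusted p under 0.05 in Old over Adult and 3 in PDX over Adult, where 2 were called by DESeq2 and 6 without O2 and O5. The part of either list in the level of Spp1 was not tested. Spp1 itself was at 60.5 CPM in O2, which had the largest sums, 951 CPM of the lipid-associated and 2558 CPM of the Kupffer list. It was at 79.4 and 87.1 CPM in P2 and P3, where the first list summed to 616 and 599 CPM and the second to 1216 and 1332 CPM.

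**Figure D4:**
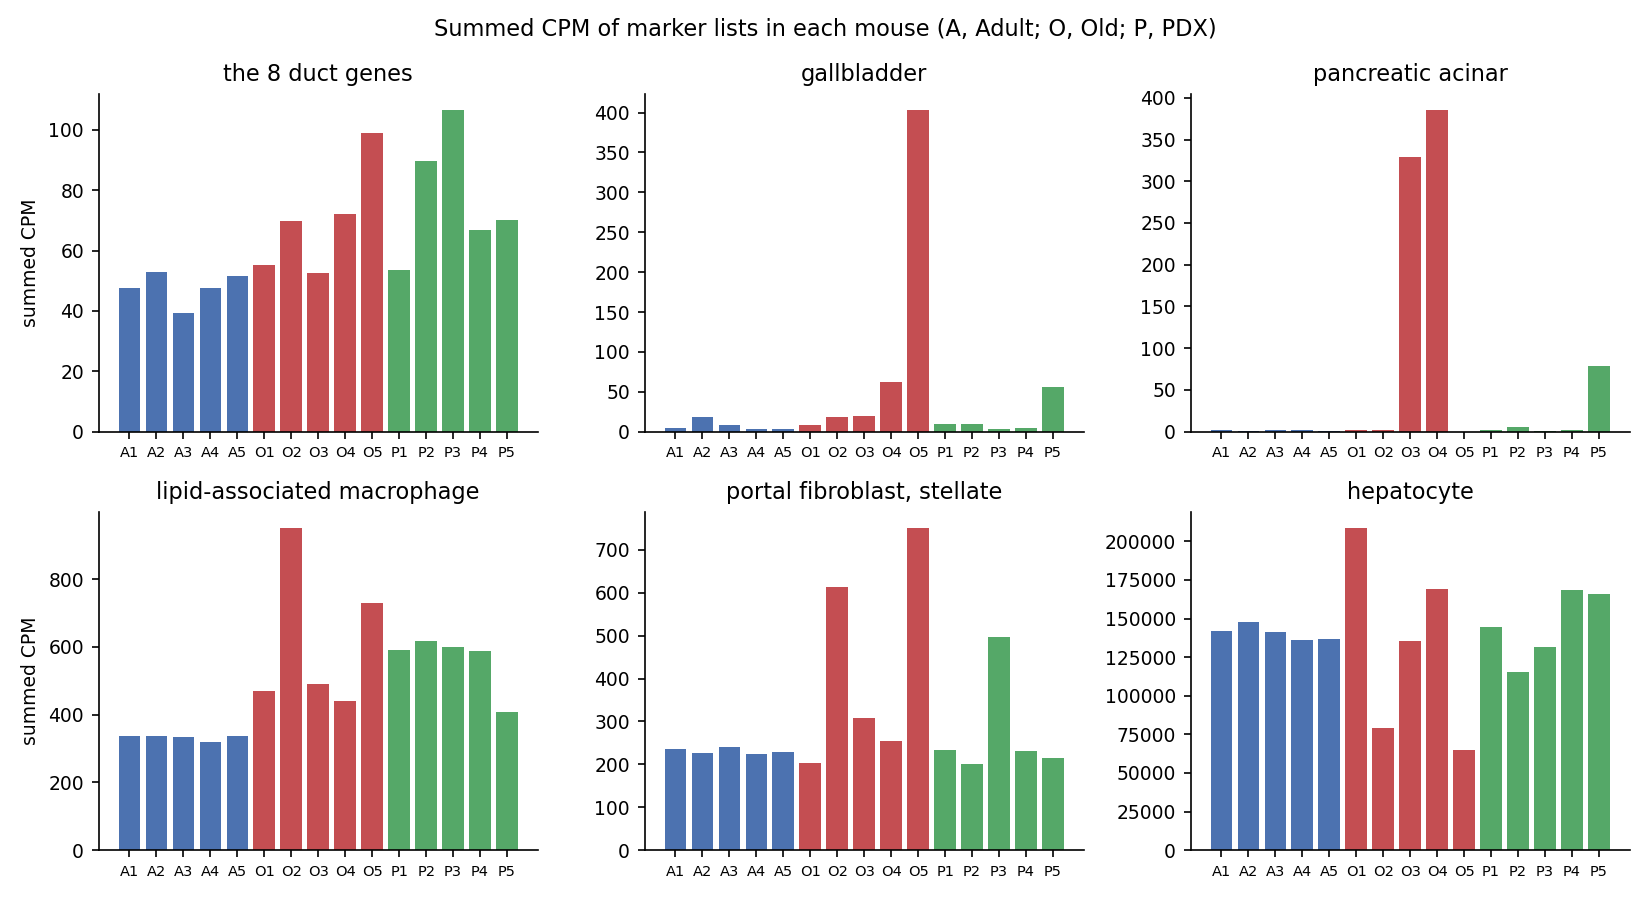
Summed CPM (linear axes) of the 8 duct genes and of 5 marker lists of other cells in each mouse, with bars coloured by group. The pancreatic sum stands out in O3, O4 and P5, the gallbladder sum in O5, and the macrophage sum is higher in every Old and PDX mouse than in every Adult mouse.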

How the data were processed

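Poly(A)-selected, strand-specific libraries, 1 per mouse, were sequenced as paired ends. The authors aligned the reads to mm10 with STAR (version 2.6.0c) and made the deposited counts of read pairs per Ensembl gene with featureCounts (Subread 1.6.2), from unique proper pairs. A second deposited table holds log2 values that the authors obtained by variance stabilization in DESeq2 (version 1.23.10), used here only in an alternative. Columns left without a sample numbered 0. Multi-mapped pairs were not counted, so genes with close copies can be undercounted.

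Of 55450 gene IDs, 55104 received a symbol from GENCODE M21 (GRCm38, which mm10 names), which also gave coordinates and exon lengths. Counts were filtered with filterByExpr (minimum count 10, minimum total count 15), scaled with TMM and fitted in all 15 mice with the quasi-likelihood test of edgeR (version 4.0.16) in R 4.3.3, with 1 coefficient per group. Adjusted p-values (Benjamini-Hochberg over 15808 genes) had a threshold of 0.05, and of 0.25 also between PDX and Old. The SE is the absolute log2 fold change over the square root of F, and 95% intervals use the t distribution with 12 degrees of freedom. All tests were two-sided. Correlations used log2 CPM with a prior count of 2. A count of 0 was taken to allow up to 3 counts, and this limit covers counting error only. Promoter motifs, tables and figures were made in Python 3.11.15 with pandas 2.3.3. The steps were tested on simulated data.

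Besides the 8 members, the genes named are, for each of 9 pathway lists, up to 4 genes past the threshold with the largest change, or the 2 with the highest CPM where none passed, and the 3 genes most like each tested member. A gene named by this rule is not reported here. A further 11 lists of other cells were read as summed CPM. Members and lists were chosen with earlier results of these data known. Alternatives were DESeq2 (version 1.42.0), 2 other normalizations, no filter, fits of the 2 groups compared, limma (version 3.58.1) on the deposited log2 values, fits without each mouse, without O2 and O5, and a replicate block, 24 fits in all with 1 chosen after seeing the data, without O3, O4 and P5. The replicate numbers come from the sample names and mark different animals. Euthanasia batches were not used here.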

Additional observations from a re-analysis of the deposited data

Results flagged for a closer look

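Of the 24 combinations of a member and a group, 8 held an outlying mouse. Its gap to the nearest other mouse, divided by the group's range, exceeded Dixon's 95% critical value for 5 values. Chance gives such a mouse in about 1 in 20 independent groups of values. In the Old group this mouse was O5 for 5 members: Krt7 at 6.42 CPM (other Old mice 0.936 to 2.49), Epcam at 12.0 CPM (1.49 to 2.75), Sox9 at 10.5 CPM (3.94 to 4.98), Cftr at 0.685 CPM (0.117 to 0.264) and Cldn4 at 1.26 CPM (0.149 to 0.468). For Krt19, A2 stood above the other Adult mice with 4.09 CPM (1.50 to 2.01) and P5 above the other PDX mice with 5.95 CPM (1.74 to 2.36). For Cftr, P1 lay below the other PDX mice with 0.0789 CPM (0.172 to 0.201), a difference of 2 counts against 5 or 6. No group of Krt23 or Spp1 held such a mouse. The combinations share mice and are not independent, and Cftr and Cldn4 had low counts, so the rate of 1 in 20 is only a rough guide.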

How the results depend on the processing

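Old and Adult differed in 1 of 6 tested members, Krt23, and in 1072 of 15808 tested genes. With DESeq2 these counts were 4 of the 8 members in its fit (Cftr, Krt23, Krt7 and Sox9) and 2642 of 18726 genes. With the 2 groups alone they were 0 of 6 and 105 of 15040. Without O2 and O5 they were 0 of 6 and 1158 of 16275. All genes called were 665 of 29465 with no filter, 651 of 15808 with limma on the deposited log2 values and 2803 of 16324 without O3, O4 and P5. Leaving out 1 mouse gave 0 to 2 members and from 156 of 16076 to 2178 of 16087 genes. Where Krt23 lost its call, in 10 of 24 fits, its adjusted p was at most 0.0998, and its log2 fold change was between -2.25 and -1.31 in all 24. For PDX and Adult, the counts were 1 of 6 members and 420 of 15808 genes. With DESeq2 they were 3 of 8 (Krt23, Sox9 and Spp1) and 1401 of 18192. With the 2 groups alone they were 3 of 6 and 4529 of 15297, and without O2 and O5 3 of 6 and 4004 of 16275. Without O3, O4 and P5 there were 709 of 16324 genes. Leaving out 1 mouse gave 0 to 2 members and from 166 of 16076 to 1766 of 15978 genes. Between PDX and Old, the 0 genes became 1 of 29060 with DESeq2, and no setting called a member. The cause of these shifts was not tested.

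Signs turned in PDX over Old where 1 mouse was left out: Krt7 then ranged from -0.88 to 0.058 and Epcam from -1.20 to 0.10 (positive without O5), Krt23 from -0.0033 (without P3) to 0.59, and Sox9 from -0.022 (without P3, and -0.0012 without O1) to 0.47. Without O3, O4 and P5, Sox9 was at -0.14. In PDX over Adult Krt19 ranged from -0.13 (without P5) to 0.64, and was at -0.12 without O3, O4 and P5. None of these values was called.

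Deviations from the group means were not shared by mice of the same number: their mean correlation was -0.17 for Old with Adult, 0.09 for PDX with Old and 0.03 for PDX with Adult. With the replicate number as a block, 0 of 6 members and 237 of 15808 genes were called in Old over Adult. In PDX over Adult these counts were 0 of 6 and 316 of 15808. The adjusted p in edgeR's test was 0.0638 for Spp1 in PDX over Adult and 0.0653 for Krt23 in Old over Adult.

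Depth limits Cftr and Cldn4, with at most 35 counts per mouse, and to a lesser degree the other members except Spp1, with 10 to 334 counts per mouse. With 5 mice per group and O5 far above the other Old mice for 5 members, the 95% intervals of Krt7, Krt19 and Epcam were wide. In Old over Adult they were 0.37 to 2.46, 0.11 to 2.30 and 0.04 to 2.39. These intervals are not adjusted for the number of genes tested, and none of these genes passed the adjusted p.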
